A study of Sus scrofa with 20 samples.

Results

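The miRNAs described here are miR-150, miR-342 and miR-31, a set linked to lymphocytes, in blood cells of pigs before and after an experimental brain bleed. They were taken by name from 2 count tables of the same libraries. The human-reference table gave hsa-miR-150-5p, hsa-miR-342-3p, hsa-miR-342-5p and hsa-miR-31-5p, 4 of its 608 names, and the pig-reference table gave ssc-miR-150, ssc-miR-342 and ssc-miR-31, 3 of its 284. All but hsa-miR-342-5p passed the filter on low counts, so 6 of the 7 entries were tested. The libraries were small RNA libraries of peripheral blood mononuclear cells (PBMCs, chiefly lymphocytes with monocytes, isolated on a density gradient) from female American Yorkshire pigs aged 80 to 90 days. The 10 Control libraries came from untreated pigs before intracerebral hemorrhage (ICH), and the 10 ICH libraries from blood taken 6 h after autologous blood had been injected into the frontal white matter through a burr hole. No sham-operated pigs were analysed here, so surgery, the passage of 6 h and the bleed cannot be told apart. Control and ICH libraries carried the same replicate numbers, 1 to 10, and libraries with the same number are treated below as drawn from the same pig; this pairing comes from the series' description of a draw before and a draw after, and from the deviations of the libraries.

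An miRNA is a short RNA that guides silencing complexes to messenger RNAs, mainly through its seed near the 5′ end, and it is cut from 1 arm (5p or 3p) of a hairpin. miR-150 is abundant in mature B and T lymphocytes and natural killer cells, is low in their progenitors, and represses the transcription factor MYB. miR-342 is encoded within EVL, a gene for an actin regulator that is active in blood cells. miR-31 is made in T cells, where it is known to repress FOXP3, and also in epithelial and stromal cells. In bulk RNA such as this, fewer cells of a type and less miRNA per cell cannot be told apart.

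The 3 genes lie on different chromosomes of the pig assembly Sscrofa11.1, per a RefSeq gene table that gives gene intervals and no exons. MIR150-1 is at chromosome 6, 54580912 to 54580988, inside no other listed gene, with FCGRT 115 bases away. MIR342 is at chromosome 7, 121021761 to 121021840, inside the interval of EVL (120911814 to 121056556). MIR31 is at chromosome 1, 201198732 to 201198809, inside no other listed gene, with the interferon gene IFNE 21039 bases away. They are thus annotated as 3 separate genes.

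The human-reference table held 919313 to 2177834 reads per library and the pig-reference counts 896960 to 2103685. Most of these are the same reads counted against different names, and the tables are not independent. Among 245 human-reference miRNAs tested, 9 (3.67%) passed an adjusted p of 0.05 without regard to the replicate numbers, 7 (2.86%) higher and 2 (0.816%) lower in ICH, and 47 (19.2%) did with the replicate number as a block, 32 (13.1%) higher and 15 (6.12%) lower (edgeR quasi-likelihood test, Benjamini-Hochberg adjustment). With library totals in place of TMM scaling the blocked split was 15 higher and 24 lower. Library totals also shifted the median log2 fold change of all tested miRNAs by -0.11, so a log2 change of that size depends on the scaling. Among 179 pig-reference miRNAs, 0 (0.0%) passed without the block and 39 (21.8%) with it, 21 (11.7%) higher and 18 (10.1%) lower. Without the block 35 of the 179 had an unadjusted p under 0.05, DESeq2 called 10 and limma voom 3.

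The 3 main miRNAs differed widely in level before ICH, and each was lower 6 h later in 9 of 10 pigs. miR-150-5p and miR-31-5p fell in the comparison within replicate numbers, to 0.767 and 0.654 of the earlier level. miR-342-3p was at 0.794 of its earlier level and did not pass the test. Without the block, 0 of the 6 tested entries passed in edgeR (adjusted p from 0.125 to 0.273), DESeq2 or limma voom, while 5 of 6 had an unadjusted edgeR p under 0.05, and all 6 had negative log2 fold changes. Every use of "fell" or "rose" below is a result of the blocked fit. Of the miRNAs tested, 18 (7.35%) of the human-reference names were lower in at least 9 of 10 pairs, and 25 (14.0%) of the pig-reference names. All 3 tested human-reference members and all 3 pig-reference members were in those sets, and the members had been chosen with earlier results of these data known. miR-342-3p was nearly level in number 3, at 621.7 CPM in Control and 621.2 in ICH. Under library totals hsa-miR-31-5p and ssc-miR-31 were lower in 8 of 10 pigs.

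miR-150-5p was the most abundant, at rank 17 of 608 by mean level in Control and rank 20 in ICH, and it took 1.14% ± 0.301 of reads (SD, n = 10) before ICH and 0.819% ± 0.276 (SD, n = 10) after it. Its level in Control ranged from 7296 CPM in number 9 through a median of 10323 to 14700 in number 6 (CPM, reads per 1000000 of the TMM-scaled library). In ICH it ranged from 6021 in number 9 through a median of 7793 to 13178 in number 4. The groups overlapped: 4 of 10 ICH libraries lay below the lowest Control library, and 8 of 10 lay below the Control median. The Control mean was 10763 ± 2249 CPM and the ICH mean 8342 ± 2270 (SD, n = 10 each). The blocked fit put the log2 fold change at -0.38 ± 0.10 (SE; edgeR adjusted p = 0.00898), and without it -0.37 ± 0.14 (adjusted p = 0.147). This placed it at rank 16 of 245 when miRNAs are ordered from the strongest decrease.

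Under TMM scaling, the fall of miR-150-5p was of like size in most pigs. Its log2 change within a number lay between -0.59 and -0.28 in 8 of the 10, was -1.02 in number 8, where 13678 CPM became 6739, and was 0.41 in number 4, where 9928 CPM became 13178. Number 4 was thus the only pig in which miR-150-5p was higher after ICH. Under library totals the same 8 pigs spread more widely, from -0.74 in number 10 to -0.26 in number 6, and number 8 was at -1.46. Leaving out any 1 replicate number kept the blocked adjusted p between 0.000403 and 0.021.

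miR-342-3p was about an order of magnitude scarcer, at rank 71 of 608 in Control and rank 77 in ICH. Control libraries ranged from 412.7 CPM in number 4 through a median of 751.2 to 1066 in number 8. ICH libraries ranged from 378.2 CPM in number 2 through a median of 612.4 to 804.4 in number 4. Here 5 of 10 Control libraries lay above every ICH library, and 1 ICH library lay below every Control library. Number 4 held the lowest Control value and the highest ICH value, so it moved against the rest by going from the bottom of one group to the top of the other. Means were 734.2 ± 236 and 573.2 ± 147 CPM (SD, n = 10 each), with a log2 fold change of -0.33 ± 0.14 with the block (SE; adjusted p = 0.0842, edgeR) and -0.36 ± 0.18 without it (adjusted p = 0.273).

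Whether miR-342-3p passed changed with number 4, and also with the filter and, for its pig-reference entry, with the tool and with number 3. Its change in number 4 was 0.96 on the log2 scale, against -1.18 to -0.00 in the other 9 pigs. Without number 4 the blocked log2 fold change reached -0.52 ± 0.11 (SE; edgeR adjusted p = 0.00153), and leaving out any other number gave -0.41 to -0.28, none past the threshold. With number 4 kept and no filter on low counts, the blocked fit of hsa-miR-342-3p also passed (-0.39, edgeR adjusted p = 0.0108). In that setting ssc-miR-342 did not (-0.36, edgeR adjusted p = 0.124). In the pig-reference counts the blocked value of ssc-miR-342 was -0.40 ± 0.15 (adjusted p = 0.0555), and it passed without number 4 (-0.50, adjusted p = 0.00222) and without number 3 (-0.44, adjusted p = 0.0491), and under DESeq2 with the block and all numbers (-0.38, adjusted p = 0.0419). Number 4 also had the lowest correlation between its Control and ICH libraries over all human-reference miRNAs tested, 0.146 against 0.305 to 0.672 in the others. Whether those libraries come from the same pig was not tested.

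miR-31-5p was the scarcest of the 3, at rank 140 of 608 in Control and rank 150 in ICH, with 52 to 197 reads per library in Control and 26 to 205 in ICH. Control libraries ranged from 46.0 CPM in number 4 through a median of 76.7 to 115.2 in number 3. ICH libraries ranged from 17.1 CPM in number 4 through a median of 41.4 to 109.3 in number 5. The lowest ICH value rests on 26 reads, with an exact (Clopper-Pearson) 95% interval of 11.04 to 24.76 per 1000000 reads, counting error only. In 6 of 10 ICH libraries miR-31-5p lay below every Control library. Means were 76.6 ± 20.1 and 52.9 ± 27.7 CPM (SD, n = 10 each), and the blocked fit gave -0.61 ± 0.16 on the log2 scale (SE; edgeR adjusted p = 0.0089), against -0.52 ± 0.24 (adjusted p = 0.233) without the block.

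With the block, miR-31-5p had the most negative fold change of all 245 human-reference miRNAs, and ssc-miR-31 of all 179 pig-reference ones, though the next in order lay within its SE; without the block they stood at ranks 7 and 6. The pigs varied more than for miR-150-5p. Its log2 change was -1.35 in number 4 and -1.30 in number 7, -0.08 in number 6, and 0.58 in number 5, the only pig in which it was higher after ICH. Under library totals number 6 also became slightly higher (0.05), which left 8 of 10 pigs lower. The spread between libraries was wider after ICH, with a coefficient of variation of 26.3% in Control and 52.3% in ICH, while that of miR-150-5p was 20.9% and 27.2%. This difference in spread was not tested.

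**Figure D1:**
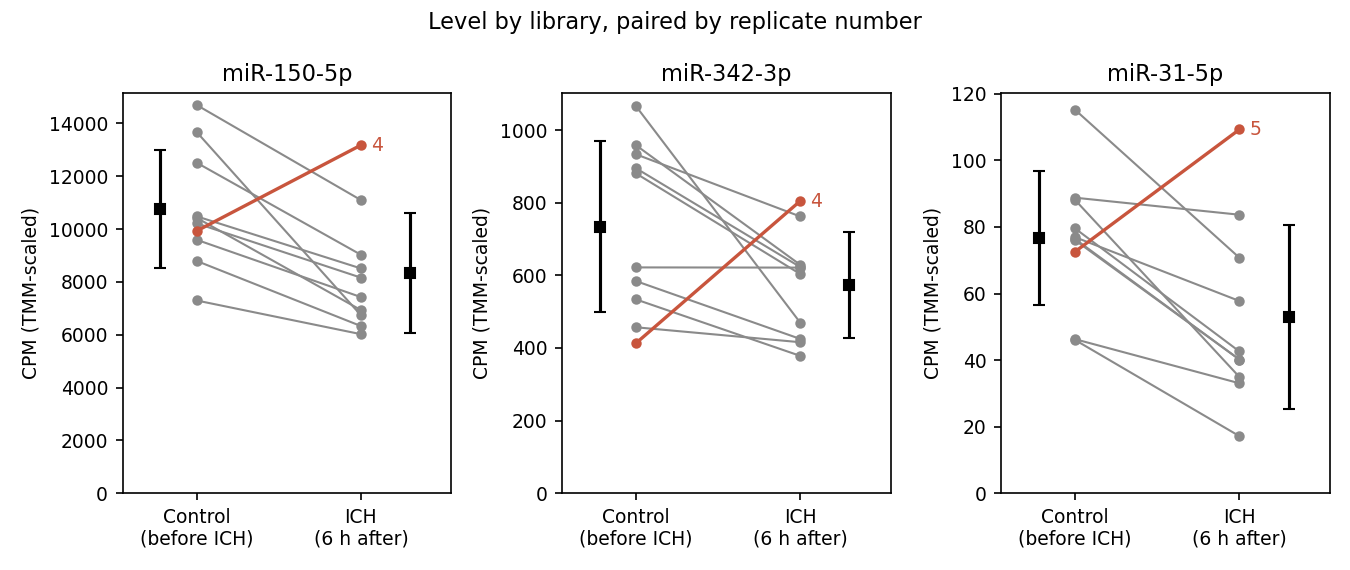
CPM of miR-150-5p, miR-342-3p and miR-31-5p (human-reference counts, TMM-scaled, linear axes from 0) in each library; each line joins the Control and ICH libraries of 1 replicate number, and black squares with bars are group means ± SD (n = 10). All lines slope down except the coloured ones, number 4 for miR-150-5p and miR-342-3p and number 5 for miR-31-5p; number 3 is nearly level for miR-342-3p.

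The other arm of miR-342 was too scarce to be compared with the 3p arm. hsa-miR-342-5p had 4 to 15 reads per library in Control and 3 to 16 in ICH, 80 and 90 in all, at a median of 5.67 and 6.46 per 1000000 reads. Fitted with no filter, it had a log2 difference of 0.19 ± 0.31 (SE; edgeR adjusted p = 0.772), and 0.18 ± 0.29 with the block (adjusted p = 0.799), higher in 7 of 10 pigs. Summed over libraries, the 5p arm made up 0.702% of miR-342 reads in Control (exact 95% interval 0.557 to 0.873) and 1.09% in ICH (0.873 to 1.33), intervals that cover counting error only and not the spread between pigs. The comparison of arms needed a median of 10 reads per library, which the 5p arm missed in both groups (6.5 and 9), so no test was made. hsa-miR-31-3p had 3 reads over the Control libraries and 0 over the ICH libraries. This 0 of 790 reads allows a share of up to 0.38% by the limit of 3 reads, or 0.466% by the exact 95% interval.

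The pig-reference entries were checked against these values. ssc-miR-342 had exactly the same count as hsa-miR-342-3p in 20 of 20 libraries, and ssc-miR-31 the same as hsa-miR-31-5p in 13 of 20 with a difference of at most 3 reads. The count of ssc-miR-150 was 1.001 to 1.003 times that of hsa-miR-150-5p. With the block ssc-miR-150 fell by 0.45 ± 0.10 in log2 terms (SE; edgeR adjusted p = 0.00398) and ssc-miR-31 by 0.69 ± 0.16 (adjusted p = 0.00432), each lower in 9 of 10 pigs. The log2 fold changes were 0.06 to 0.08 more negative than in the human-reference fit, with the block or without it. For miR-342, whose counts were identical, that difference came from the library scaling alone. The 3 miRNAs had ranks 10 (ssc-miR-150), 15 (ssc-miR-342) and 1 (ssc-miR-31) of 179 by decrease.

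**Figure D2:**
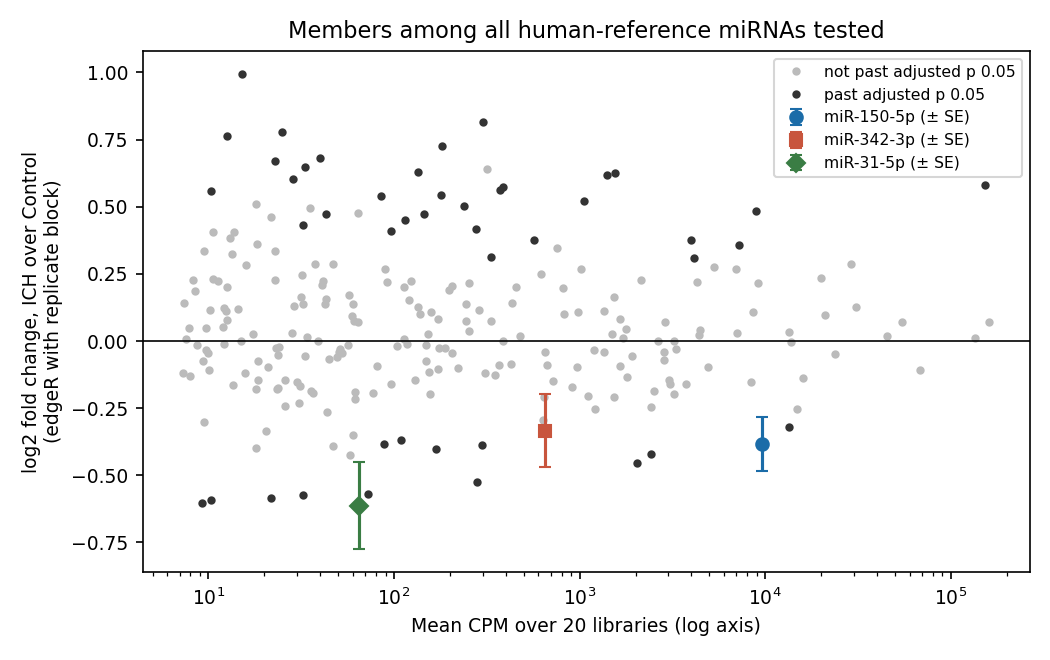
Log2 fold change with the replicate block against mean CPM over the 20 libraries (log axis) for the 245 human-reference miRNAs tested; dark points passed an adjusted p of 0.05, and the members carry bars of ± SE. miR-31-5p sits lowest of all points, while miR-150-5p and miR-342-3p lie at like depth although their levels differ more than 10-fold.

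The 3 were then compared with each other through ratios of their reads within each library, which no scaling affects. miR-150-5p had a median of 15.6 reads for each read of miR-342-3p in Control (range 11.7 to 24.0) and 14.4 in ICH (11.5 to 17.6). On the log2 scale this was 3.92 ± 0.31 before ICH and 3.86 ± 0.22 after it (SD, n = 10 each), and the ratio was higher after ICH in 5 of 10 pigs. The ratio changed to 0.963 of its earlier value, with a 95% interval of 0.851 to 1.09 from the differences within numbers (permutation test, two-sided, p = 0.662; 0.662 when adjusted over the 3 ratios).

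miR-31-5p was compared with both in the same way, less precisely. Relative to miR-150-5p it stood at -7.15 ± 0.54 in log2 before ICH and -7.42 ± 0.88 after it (SD, n = 10 each), a change to 0.828 with a 95% interval of 0.555 to 1.24 (permutation test, p = 0.452, adjusted p = 0.662). To miR-342-3p it was -3.23 ± 0.61 and -3.56 ± 0.83, a change to 0.797 with an interval of 0.502 to 1.27 (permutation test, p = 0.347, adjusted p = 0.662). Each of these was lower after ICH in 7 of 10 pigs. The lower fold of miR-31-5p than of miR-150-5p was therefore within the spread between pigs. The exact sign-flip test within numbers gave p = 0.518, 0.324 and 0.324 for the 3 ratios.

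**Figure D3:**
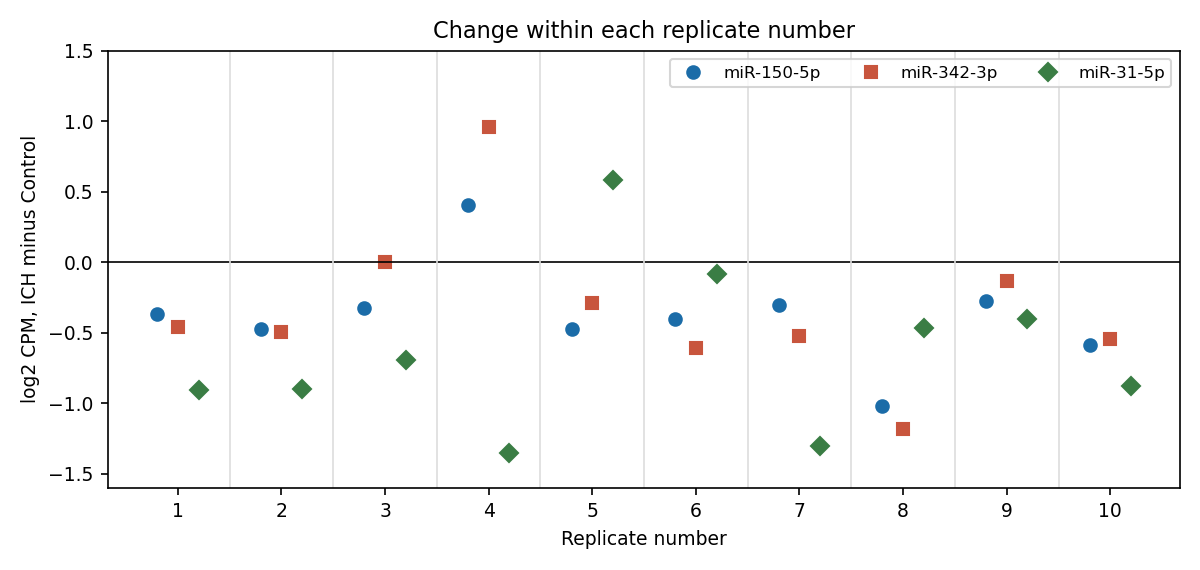
Log2 CPM in ICH minus Control (TMM-scaled) for each replicate number and each of the 3 miRNAs; the line at 0 marks no change. miR-150-5p and miR-342-3p lie near each other in most numbers and are both above 0 in number 4 and both lowest in number 8, while miR-31-5p is lowest in number 4 and above 0 in number 5.

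Across pigs, miR-150-5p and miR-342-3p varied together before ICH, and no relation of either with miR-31-5p was detected. Over the 10 Control libraries the log2 levels of miR-150-5p and miR-342-3p had Pearson's r = 0.809 (permutation p = 0.0029, adjusted p = 0.0087 over 6 relations) and Spearman's rho = 0.915 (permutation p = 0.00056, adjusted p = 0.00336). Leaving out the 2 pigs farthest from the median level of miR-150-5p, numbers 6 and 9, gave r = 0.77 (exact permutation test, p = 0.0115, adjusted p = 0.069) and rho = 0.929. The point farthest from the others was number 4, where miR-342-3p was low for the level of miR-150-5p. miR-31-5p had r = -0.14 with miR-150-5p (permutation p = 0.708, adjusted p = 0.784; rho = 0.127, permutation p = 0.738, adjusted p = 0.738) and r = 0.09 with miR-342-3p (permutation p = 0.784, adjusted p = 0.784; rho = 0.188, permutation p = 0.611, adjusted p = 0.733). The points share library depth and scaling.

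The changes within pigs were related in the same way, most strongly through 2 pigs. The log2 changes of miR-150-5p and miR-342-3p had r = 0.944 over the 10 numbers (permutation p = 0.00226, adjusted p = 0.0087) and rho = 0.733 (permutation p = 0.0201, adjusted p = 0.0603); under library totals rho was 0.83 (permutation p = 0.00476, adjusted p = 0.0143). Without numbers 4 and 8, the pig in which both were higher and the pig in which both were lowest relative to Control, r was 0.481 (exact permutation test, p = 0.214) and rho 0.476. The size of r over all 10 thus rests on those pigs, and the 8 others, which span a narrower range, do not show whether a weaker relation was present. The change of miR-31-5p had r = -0.41 with that of miR-150-5p (permutation p = 0.205, adjusted p = 0.409; rho = -0.37, permutation p = 0.297, adjusted p = 0.594) and r = -0.31 with that of miR-342-3p (permutation p = 0.362, adjusted p = 0.543; rho = -0.22, permutation p = 0.533, adjusted p = 0.733). In number 4, miR-31-5p had its lowest change while the other two were higher.

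**Figure D4:**
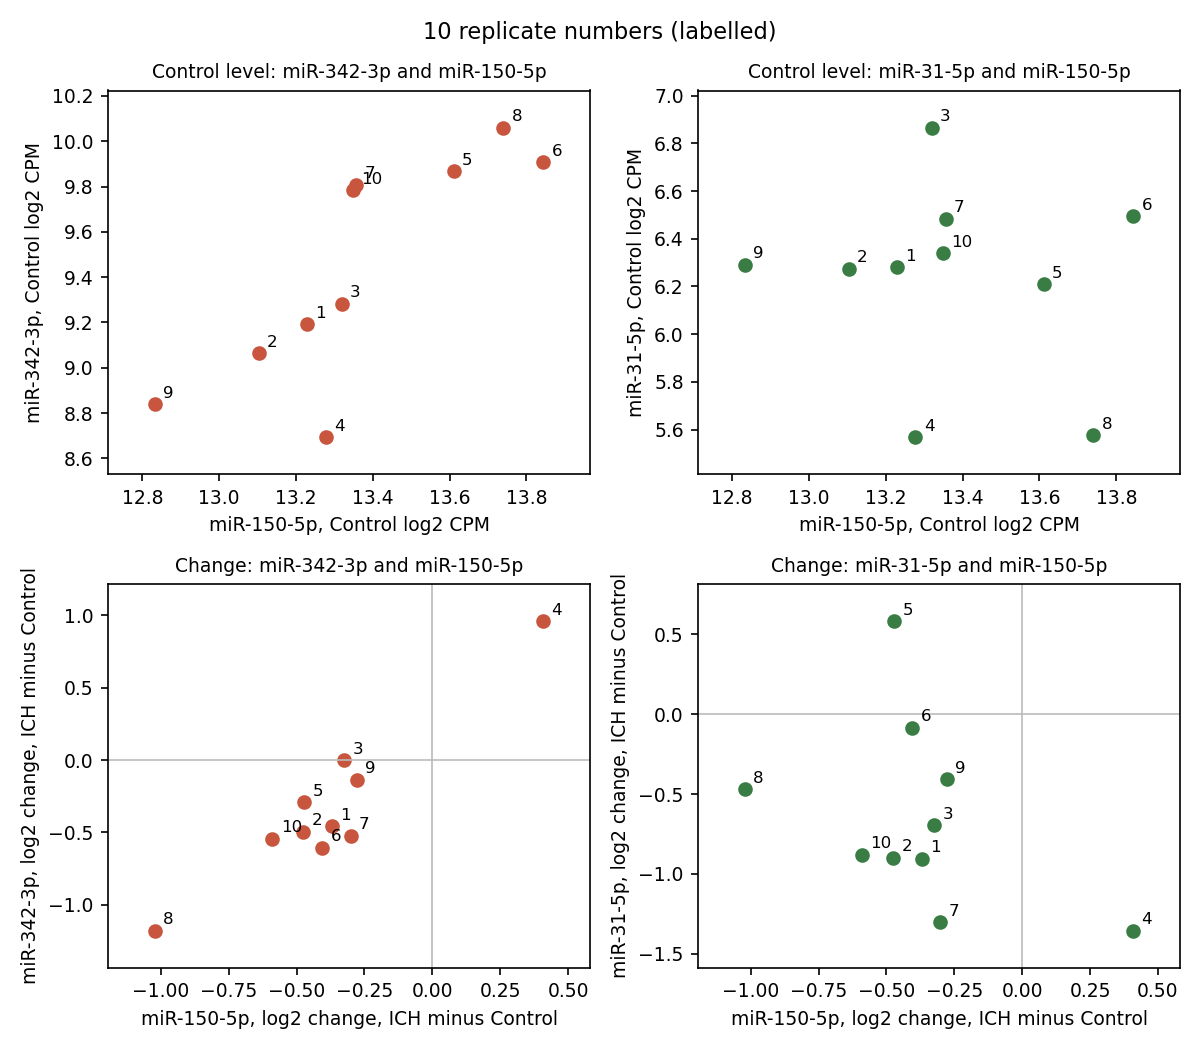
Each point is 1 replicate number; the upper panels set Control log2 CPM of miR-342-3p (left) and miR-31-5p (right) against miR-150-5p, and the lower panels set their log2 changes (ICH minus Control) against that of miR-150-5p. In the upper left panel the points rise together (r = 0.809) with number 4 below them; in the lower left panel numbers 4 and 8 mark the ends, and the right panels show no such order.

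The miRNAs most like each member were sought among 230 others with a mean of at least 10 CPM, by the correlation of log2 CPM deviations from the group mean over the 20 libraries. These are descriptions, since libraries share pigs and scaling. Nearest to miR-150-5p were miR-29b-3p (r = 0.793), miR-342-3p (0.792) and miR-331-3p (0.784). Nearest to miR-342-3p were miR-331-3p (0.85), miR-423-5p (0.835) and miR-4286 (0.832), with miR-150-5p next at rank 4. The nearest to miR-31-5p were miR-20b-5p (0.521), miR-19a-3p (0.493) and miR-4510 (0.459), all weaker, and miR-150-5p stood at rank 155 of the 230.

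A close match across libraries did not always go with the same change after ICH. miR-29b-3p fell with the block (-0.37 ± 0.13 SE, adjusted p = 0.0496, edgeR; lower in 9 of 10 pigs). miR-331-3p, near both miR-150-5p and miR-342-3p in its deviations, was higher in 9 of 10 pigs without passing the test (0.36 ± 0.18, adjusted p = 0.177). miR-423-5p did not pass (log2 0.03 ± 0.16, adjusted p = 0.946).

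Other miRNAs linked to lymphocytes (the miR-181 and miR-29 families, miR-155, miR-146a and miR-28) were examined as a list. In the human-reference counts 3 of 17 tested entries fell with the block and 2 rose, beside 6.12% lower and 13.1% higher over all miRNAs tested, while 12 missed the threshold. The share that rose was near that of all miRNAs. The median log2 fold change was -0.16, beside 0.03 over all 245. miR-181a-5p, which tunes T cell receptor signalling, fell from a mean of 14966 to 12023 CPM (-0.32 ± 0.083 SE, adjusted p = 0.00856, edgeR; lower in 9 of 10 pigs). miR-29a-3p, which represses the interferon gamma program of T cells, fell by 0.42 ± 0.092 in log2 terms (adjusted p = 0.00209; lower in 10 of 10), and miR-29b-3p, given above, was the third. miR-181d-5p and miR-181c-3p rose, by 0.50 ± 0.098 (adjusted p = 0.000854) and 0.41 ± 0.11 (adjusted p = 0.0125), each higher in 10 of 10 pigs. In the pig-reference counts 4 of 11 fell (ssc-miR-181a, ssc-miR-181b, ssc-miR-29a and ssc-miR-29b), 1 rose (ssc-miR-181d-5p) and 6 did not pass, beside 10.1% lower and 11.7% higher over all, with a median of -0.22 beside -0.04 over all 179. Near-identical members of the miR-181 and miR-29 families can share reads, so their split is uncertain.

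The summed level of that list was lower after ICH in 9 of 10 pigs, from a Control range of 27145 to 36542 CPM to an ICH range of 26631 to 30720. The exception was number 5, the pig in which miR-31-5p was higher too. In number 4, where miR-150-5p and miR-342-3p were higher, the sum changed by -0.31 on the log2 scale, within the -0.34 to -0.13 of the other decreases. The sum was mostly miR-181a-5p and miR-146a-5p, so it says little of the scarcer entries. With the block miR-146a-5p did not pass (mean 8963 CPM in Control and 7863 in ICH, edgeR adjusted p = 0.327). miR-155-5p was higher in 9 of 10 pigs and did not pass either (edgeR adjusted p = 0.14).

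Markers of the other cells that a PBMC preparation can hold were measured beside these results. In the myeloid list (miR-223, miR-23a, miR-27a, miR-24 and miR-22) 3 of 9 human-reference entries rose with the block, beside 13.1% of all 245. They were both arms of miR-223 and miR-27a-5p. The other 6 did not pass, among them the most abundant, miR-24-3p (mean 8287 CPM in Control, log2 0.11, edgeR adjusted p = 0.393), and miR-27a-3p, miR-22-3p and miR-23a-3p. The summed level of the list went from 19403 to 22468 CPM in Control to 22283 to 25187 in ICH, higher in 9 of 10 pigs. The defining member miR-223-3p was at 607.0 to 1934 CPM in Control and 1283 to 2802 in ICH. In the pig-reference counts, where the list has no miR-223 entry, 0 of 6 passed with the block, beside 11.7% higher and 10.1% lower over all 179. Without the block 0 of 6 passed in edgeR, where 0 of all 179 did, or in DESeq2. Of the 6, 0 had an unadjusted edgeR p under 0.05. The sum of the list was higher in 7 of 10 pigs, but hardly so in numbers 1, 7 and 10 (log2 0.0019, 0.0014 and 0.0075). Its median was 21230 CPM in Control and 21507 in ICH. The erythroid list (miR-451, miR-144, miR-486 and miR-363) had 2 of 6 human-reference entries that rose, beside 13.1% of all 245. Its median log2 fold change was 0.49, beside 0.03 over all 245. Its summed level was nonetheless lower in 7 of 10 pigs, at 3267 to 6167 CPM in Control and 2909 to 4851 in ICH, and most of the sum was miR-363-3p (mean 3939 CPM in Control against 107.2 for miR-486-5p, 123.3 for miR-144-3p and 262.3 for miR-451a). miR-363-3p did not pass (-0.16, edgeR adjusted p = 0.21, lower in 8 of 10), and the 2 that rose were miR-144-3p and miR-486-5p. miR-451a did not pass either (0.64 ± 0.28 SE, edgeR adjusted p = 0.14, higher in 7 of 10). The platelet list (miR-126, miR-199a, miR-199b, miR-340 and miR-151) had 1 of 7 that rose, miR-126-3p, and 1 that fell, miR-151a-5p, beside 13.1% higher and 6.12% lower over all. Its sums, mostly miR-340-5p, were 3944 to 5708 CPM in Control and 3975 to 5740 in ICH, higher in 6 of 10 pigs. In the pig-reference counts 1 of 4 erythroid entries rose, with the sum lower in 9 of 10 pigs. Of 6 platelet entries 1 rose and 2 fell (ssc-miR-151-3p and ssc-miR-151-5p). Over all 179 pig-reference miRNAs 11.7% were higher and 10.1% lower by the same test. No defining marker was at 0: miR-451a ranged from 47.7 to 580.1 CPM in Control and from 124.7 to 738.3 in ICH. In number 4 the myeloid and erythroid sums had their largest increases, 0.34 and 0.35 on the log2 scale. There miR-223-3p went from 607.0 to 2386 CPM and miR-451a from 47.7 to 443.1, each the largest increase of the 10 pigs, while miR-486-5p went from 34.1 to 62.6. The markers named here, apart from the most abundant of each list, were chosen after their values were seen. The part of these cells in the falls of miR-150-5p and miR-31-5p was not tested.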

How the data were processed

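PBMC small RNA libraries (10 Control, 10 ICH, grouped by title) were compared. The deposited counts are whole numbers of reads for each human or pig miRNA name. The submitters' processing notes list bcl2fastq, FastQC and Bowtie, with GRCh38, hg38 and Sscrofa11.1 as builds. Aligner settings, the handling of reads that match several miRNAs and the authors' filter were not given in the sources used here. Deposited RPM tables (filtered reads scaled to library totals by the authors) were not used here. The members and lists were chosen with earlier results of these data known.

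Unfiltered counts were fitted over each whole table with edgeR 4.0.16 under R 4.3.3 (TMM, filterByExpr, robust quasi-likelihood, Benjamini-Hochberg adjustment, threshold 0.05); DESeq2 1.42.0, limma 3.58.1 voom, library totals, no filter, the filtered counts and leaving out each replicate number were alternatives. A standard error is the log2 fold change divided by the root of F. Log2 CPM used a prior count of 2. Ratios used 0.5 added to each count and 100000 resamples, or all rearrangements under 10 per group (scipy 1.17.1). Intervals of a ratio's change used the t distribution over the 10 differences. The fits were tested on simulated counts.

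The design without a block was the planned one. Deviations from the group means correlated between same-numbered libraries, at 0.146 to 0.672 in the human-reference counts and 0.129 to 0.768 in the pig-reference counts, all 10 over the minimum of 0.1, against medians of -0.071 and -0.065 between different numbers. The ICH library most correlated with a Control library had the same number for 8 of 10 in both tables. Seen from the ICH libraries this held for 8 of 10 (human-reference) and 7 of 10 (pig-reference). The rest matched another number better, so the correlations do not show the pairing of every number. With the series' description of a draw before and a draw after, the numbers were read as pairs. The labels do not state outright that a number marks the same pig. No 2 libraries of a group agreed within sampling noise (chi-square per degree of freedom at least 23.4). The labels give no batches and no statement that the pigs were processed independently. The column names number the Control and ICH library of each replicate number consecutively. Whether a shared order of handling contributed to the correlations between same-numbered libraries was not tested. The named miRNAs were the members, list entries that passed with the block, and the 3 most alike by correlation; human names miR-451a and miR-151a were matched to list names without the letter, and names ending in @, a mark that no source explains, were matched without it. Without molecular identifiers, reads are not counts of independent molecules.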

Additional observations from a re-analysis of the deposited data

Results flagged for a closer look

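In 27 groups of 10 values (levels, changes and ratios of the members), 5 held an extreme value whose gap to the next was a larger share of the range than Dixon's 95% limit; chance flags about 1 in 20. All 5 came from number 4. The log2 ratio of miR-150-5p to miR-342-3p in Control 4 was 4.587, against 3.55 to 4.042 in the other Control libraries. In ICH 4 the log2 ratio of miR-31-5p to miR-150-5p was -9.559, against -7.914 to -6.364, and that of miR-31-5p to miR-342-3p was -5.525, against -4.143 to -2.798. The log2 change of hsa-miR-150-5p in number 4 was 0.4086, against -1.021 to -0.2772 in the others, and that of ssc-miR-150 was 0.4134, against -1.055 to -0.3277. These values share the same 2 libraries and are not separate observations.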

How the results depend on the processing

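Every alternative kept the sign of the log2 fold changes of the 6 tested entries. Calls appeared with the replicate block and not without it. The log2 fold changes with the block, under edgeR with TMM, DESeq2, library totals, no filter and filtered counts in that order, were -0.38, -0.42, -0.49, -0.44 and -0.41 for hsa-miR-150-5p, -0.61, -0.66, -0.73, -0.67 and -0.64 for hsa-miR-31-5p, -0.45, -0.43, -0.50, -0.41 and -0.41 for ssc-miR-150, and -0.69, -0.69, -0.74, -0.65 and -0.65 for ssc-miR-31, all past the threshold. hsa-miR-342-3p passed with no filter and the block (-0.39, adjusted p = 0.0108, edgeR) and ssc-miR-342 with DESeq2 and the block (-0.38, adjusted p = 0.0419). With no filter and the block ssc-miR-342 did not pass (-0.36, adjusted p = 0.124, edgeR). Leaving out 1 replicate number with the block gave -0.52 to -0.36 for hsa-miR-150-5p, -0.52 to -0.28 for hsa-miR-342-3p, -0.80 to -0.53 for hsa-miR-31-5p, -0.50 to -0.37 for ssc-miR-150, -0.50 to -0.30 for ssc-miR-342 and -0.85 to -0.57 for ssc-miR-31. The human-reference count of calls, 9 without the block, became 47 with it, 47 with DESeq2 and the block, 5 with library totals, 39 with library totals and the block, 50 with no filter and the block, 48 with filtered counts and the block, and 32 to 61 without 1 number. The pig-reference count, 0, became 39, 46, 2, 36, 41 and 38 under the same settings, 10 with DESeq2, 3 with limma voom, 2 with filtered counts, and 27 to 59 without 1 number; in both tables the most calls came without number 4. No ratio passed under any alternative. The log2 ratio of miR-150-5p to miR-342-3p changed by -0.085 to 0.00071 without 1 number, that of miR-31-5p to miR-150-5p by -0.42 to -0.10 and that of miR-31-5p to miR-342-3p by -0.46 to -0.10. For levels in Control, library totals turned the correlation of miR-150-5p and miR-31-5p to 0.288, and leaving out 2 numbers gave -0.43 for miR-342-3p and miR-31-5p and 0.77 for miR-150-5p and miR-342-3p. For changes, leaving out 2 numbers gave 0.481 for miR-150-5p and miR-342-3p and 0.227 for miR-342-3p and miR-31-5p. Leaving out 2 numbers also leaves fewer samples and a narrower range; the cause of these changes was not tested. The alternatives that combine the block with no filter or with filtered counts were chosen after seeing the data. Depth limits miR-342-5p (3 to 16 reads per library) and miR-31-5p (26 to 205).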

Other observations

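The authors' filter removed different shares of the members' reads. It kept 99.7% of reads of hsa-miR-150-5p summed over the 20 libraries, 96.4% of hsa-miR-342-3p, 91.2% of hsa-miR-31-5p and 57.1% of hsa-miR-342-5p. For hsa-miR-31-5p the share kept ranged from 81.3% to 96.2% between libraries.

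Number 8 had the most negative change of both miR-150-5p and miR-342-3p. There miR-342-3p went from 1066 CPM, the highest Control value, to 469.9, and miR-31-5p from 46.3 to 33.0 CPM.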
